A study of Mus musculus with 12 samples.

Results

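The liver makes triglyceride from fatty acids and glycerol 3-phosphate and exports it in very-low-density lipoprotein (VLDL). From this route, 10 genes were followed in mouse liver after a bout of running: the lipins Lpin1, Lpin2 and Lpin3, the acyltransferases Gpam, Agpat2, Dgat1, Dgat2 and Mogat1, and the VLDL assembly genes Mttp and Apob. They were chosen by name for their known roles, with earlier results of these data known. All 10 had a row among the 17432 genes of the deposited table. Lpin1 and Lpin2 rose after exercise, Gpam and Agpat2 fell, and Lpin3, Dgat1, Dgat2, Mttp and Apob did not pass the test. Mogat1 had too few counts to be tested.

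RNA-Seq was done on the livers of 12 male wild-type C57BL/6J mice, 8 to 10 weeks old, with 6 Sedentary and 6 Exercise mice. All mice were trained to timed feeding (9:00 to 15:00) for 3 days. On the day of the run they were given food from 9:00 until 12:00. The Exercise mice then ran at 14 m/min for 3 hours, while the Sedentary mice took no part in this run. Tissues of both groups were taken at the same time. Both groups had been habituated to the treadmill beforehand, by a rest (10 min) and a short, slower run (5 min, speed 10 m/min). All were labelled wild type, the 3-hour run was the only labelled difference, and it took place after the food had been removed.

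In the glycerol 3-phosphate pathway, fatty acyl chains are added to glycerol 3-phosphate to give lysophosphatidic acid and then phosphatidic acid. Lipins remove the phosphate to give diacylglycerol, and a last acylation gives triglyceride. Lipins also act in the nucleus as transcriptional coregulators, and Lpin1 is known as a gene induced in liver by fasting and glucocorticoids. In VLDL assembly, microsomal triglyceride transfer protein (encoded by Mttp) loads lipid onto apolipoprotein B (Apob) in the endoplasmic reticulum.

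Total estimated counts ran from 18971992 to 19324461 in Sedentary and from 18745379 to 19001010 in Exercise libraries. Levels are given as CPM (counts scaled to library size) adjusted by the TMM method, which corrects for differences in RNA composition between libraries. Levels of different genes are compared only as FPKM, which also corrects for transcript length. Of 8 hepatocyte markers, all were tested, and their summed level was 125821 to 171692 CPM in Sedentary and 159615 to 179241 CPM in Exercise livers. Of these, 3 (Alb, Ass1 and Tat) were higher after exercise. The 5 adipocyte markers in the table summed to at most 0.2 CPM in any liver, and Lep had no row. Markers of striated muscle, a tissue with its own Lpin1 expression, summed to 11.1 to 23.0 CPM in Sedentary and to 0.058 to 11.3 CPM in Exercise livers, and the 4 of 8 that could be tested were lower after exercise. Exercise replicate 1 held the 11.3 CPM. The part of these markers in the results was not tested. Of the markers tested for sinusoidal endothelial cells, 1 of 4 was higher, and for stellate cells 2 of 5 were lower. Over all genes tested, 21.1% were called higher and 21.3% lower. The summed level of the stellate markers was 151 to 201 CPM in Sedentary and 143 to 207 CPM in Exercise livers. No tested marker of Kupffer cells and macrophages or of cholangiocytes was called. In bulk liver, a lower level can be less RNA per cell or fewer cells of a type, and these cannot be told apart.

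The sequences just before the annotated starts of Lpin1, Lpin2 and Gpam are shown because these genes had the largest changes of the 10. They come from RefSeq on GRCm38.p6, which had such windows for 8 of the 10 genes, 12 windows in all. Each line holds the 250 bases before the start, 5′ to 3′ on the gene's strand, and capitals mark matches to the motifs described after the sequences. The Lpin1 window lies at chr12:16610967-16611216 on the minus strand. It is the only window for this gene, although GENCODE M21 holds 6 protein-coding Lpin1 transcripts. Which start is used in these livers was not tested. Of 3 Lpin2 windows, the most upstream is shown. It lies at chr17:71183282-71183531 on the plus strand, in an intron of a longer GENCODE M21 transcript. Of the 2 Gpam windows, both on the minus strand, the upstream one lies at chr19:55127239-55127488. The downstream one, at chr19:55099478-55099727, is intronic for the longer Gpam transcripts.
Lpin1: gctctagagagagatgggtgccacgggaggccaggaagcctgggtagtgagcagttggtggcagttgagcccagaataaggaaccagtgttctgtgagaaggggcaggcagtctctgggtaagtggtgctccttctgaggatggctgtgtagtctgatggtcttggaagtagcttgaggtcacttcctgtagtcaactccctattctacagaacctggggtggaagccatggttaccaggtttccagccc
Lpin2: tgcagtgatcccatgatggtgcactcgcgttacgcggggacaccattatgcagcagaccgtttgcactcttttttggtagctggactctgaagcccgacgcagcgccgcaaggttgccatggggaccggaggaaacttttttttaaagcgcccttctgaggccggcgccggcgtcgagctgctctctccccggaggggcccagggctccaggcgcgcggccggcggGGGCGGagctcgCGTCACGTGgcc
Gpam upstream start: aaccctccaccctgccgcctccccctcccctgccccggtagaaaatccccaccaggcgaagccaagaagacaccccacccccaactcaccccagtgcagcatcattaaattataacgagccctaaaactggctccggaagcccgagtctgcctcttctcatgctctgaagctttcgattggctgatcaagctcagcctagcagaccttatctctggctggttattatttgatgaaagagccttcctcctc
Gpam downstream start: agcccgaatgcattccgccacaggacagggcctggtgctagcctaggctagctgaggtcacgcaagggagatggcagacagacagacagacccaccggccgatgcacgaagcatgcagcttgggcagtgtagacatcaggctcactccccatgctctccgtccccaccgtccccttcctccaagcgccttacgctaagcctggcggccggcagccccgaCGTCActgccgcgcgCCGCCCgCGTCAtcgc

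On both strands, 8 motifs were searched. These were the cAMP response element TGACGTCA, its short core TGACG (contained in the full element), a forkhead core GTAAACA, the E-box CACGTG, a sterol response element core TCACNCCAC, a glucocorticoid receptor core ACANNNTGT, the GC box GGGCGG and the TATA box TATAAA. The Lpin1 window and the upstream Gpam window held none of them. The Lpin2 window shown held an E-box from 9 to 4 bases before the start, which overlapped a short core from 12 to 8 bases before it, and a GC box from 24 to 19. The downstream Gpam window held a short core 31 to 27 and another 9 to 5 bases before the start, with a GC box between them. Of all 32851 windows of the same length, 17.8% held the short core, 6.02% the E-box and 32.7% the GC box. The full element was found in 1.55%, the forkhead core in 3.17%, the sterol element core in 1.05%, the glucocorticoid receptor core in 5.84% and the TATA box in 12.4%. Of the other Lpin2 windows, 1 held a GC box and 1 the forkhead core. Lpin3 held a GC box in 1 of its 2 windows, Mttp held a short core and Agpat2 held 2 overlapping GC boxes. Apob held a TATA box 60 to 55 bases before its RefSeq start. The Apob window ends at 7977676, past the start of the gene in GENCODE M21 (7977648), so its distance to that start is smaller. These are matches of letters only.

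**Figure D1:**
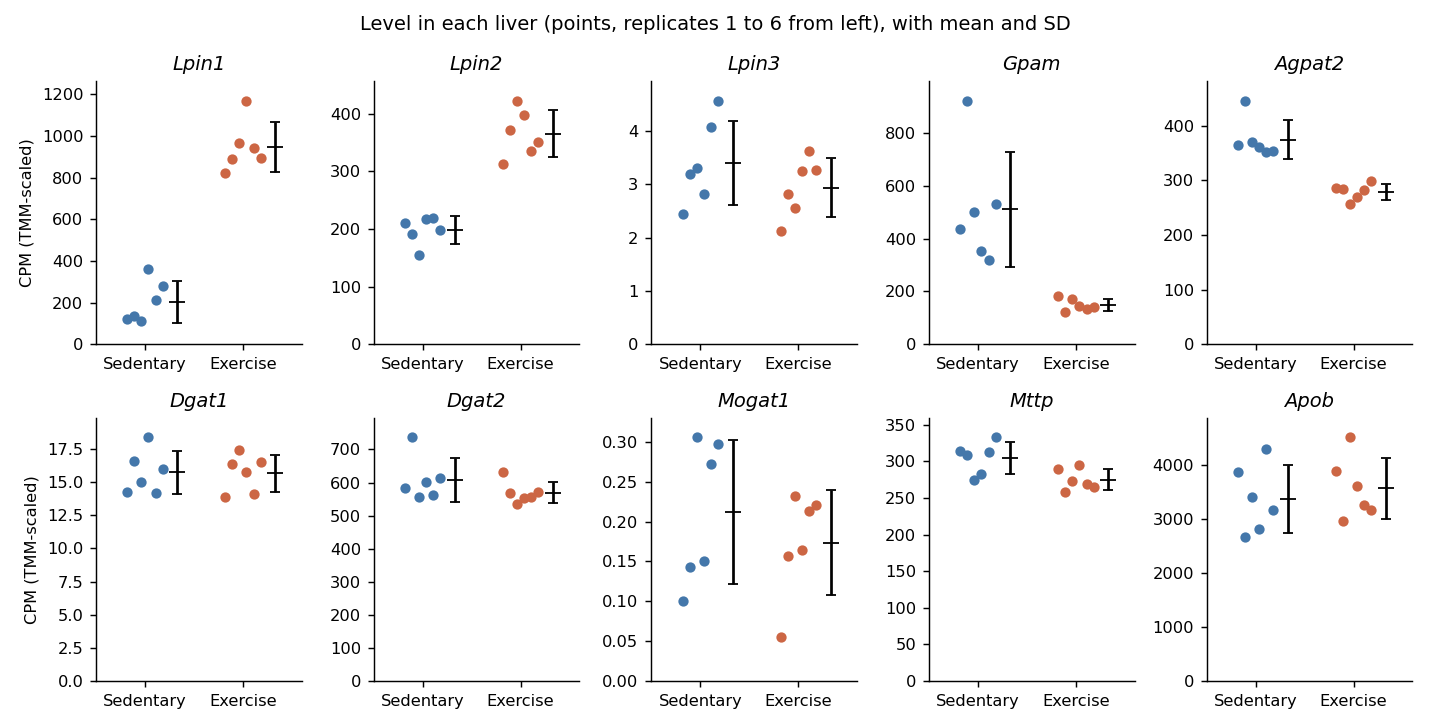
Level of each of the 10 genes in each liver in TMM-scaled CPM (vertical axes, each from 0), with Sedentary livers in blue, Exercise livers in orange and the mean ± SD in black (n = 6). Lpin1 and Lpin2 are higher and Gpam and Agpat2 lower in every Exercise liver, while the groups overlap in the other 6 genes.

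Lipins catalyze the phosphatidic acid phosphatase step. Lpin1 (gene ID 14245, chromosome 12, 16535669 to 16610966, minus strand, GRCm38) was at 123, 136, 111, 360, 214 and 280 CPM in Sedentary replicates 1 to 6, and at 823, 887, 967, 1170, 944 and 893 CPM in Exercise replicates 1 to 6. Every Exercise liver was above every Sedentary liver, and the highest Sedentary liver, replicate 4, was still far below the lowest Exercise liver. The mean rose 4.64-fold, from 204 ± 100 to 947 ± 120 CPM (SD, n = 6), with a log2 difference of 2.21 (SE 0.30, adjusted p = 0.000176, edgeR quasi-likelihood test with Benjamini-Hochberg adjustment). A two-sided exact permutation test gave p = 0.00216, the smallest p that 6 livers against 6 can give. Lpin1 had the 24th largest log2 rise of the 12344 genes tested, of which 21.1% were called higher and 11.7% were higher without overlap between the groups.

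Lpin2 (gene ID 64898, chromosome 17, 71182560 to 71249817, plus strand) encodes a phosphatase of the same activity that is abundant in liver. It was at 211, 191, 155, 217, 219 and 199 CPM in the Sedentary livers and at 313, 371, 423, 398, 336 and 351 CPM in the Exercise livers, in replicate order. The groups did not overlap, and the rise was smaller and more even than that of Lpin1. The mean went from 199 ± 23.8 to 365 ± 40.7 CPM (SD, n = 6), 1.84-fold, with a log2 fold change of 0.88 (SE 0.087, adjusted p = 5.82e-07, edgeR). GENCODE M21 places Lpin2 inside the noncoding RNA Gm26561 on the same strand, which had no row of its own.

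Lpin3 (gene ID 64899, chromosome 2, 160880670 to 160906002, plus strand), the third lipin, was low in all 12 livers, with 49 to 92 estimated counts in Sedentary and 39 to 68 in Exercise libraries. Its level was 3.41 ± 0.789 CPM in Sedentary and 2.94 ± 0.544 CPM in Exercise livers (SD, n = 6), and the groups overlapped. The log2 fold change was -0.21 (95% interval -0.53 to 0.11, adjusted p = 0.324, edgeR), so that neither a modest fall nor no change lies outside the interval.

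Summed over the 3 lipins, the deposited FPKM was 77.2 ± 21.6 (range 50.4 to 110) in Sedentary and 233 ± 24.8 (range 200 to 276) in Exercise livers (SD, n = 6). Lpin1 made up 47.6% ± 10.1 of this sum in Sedentary livers, with a range of 36.6% to 61.6%. In Exercise livers its share was 71.6% ± 1.86, with a range of 69.2% to 74.1%. The Lpin2 share was 50.9% ± 9.9 in Sedentary and 28.0% ± 1.9 in Exercise livers, although its own level rose. Lpin3 supplied 1.47% ± 0.409 and 0.375% ± 0.0652 of the sum. The shares did not overlap between the groups for any of the lipins, and Lpin1 and Lpin2, near equal on average in Sedentary livers, were no longer so after exercise. The shares are given as a description, without a test.

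**Figure D2:**
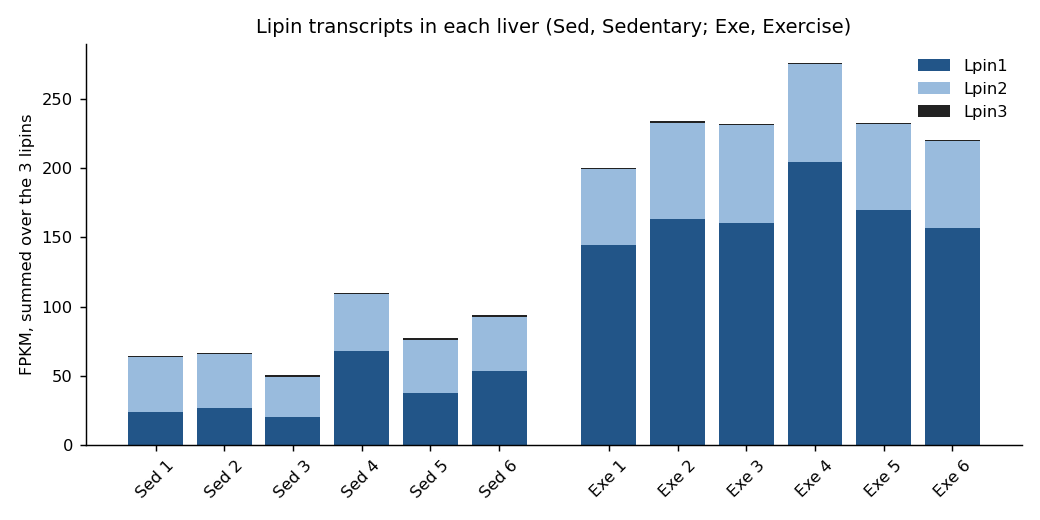
FPKM of Lpin1, Lpin2 and Lpin3 (vertical axis, stacked) in each Sedentary (Sed) and Exercise (Exe) liver by replicate number. The stacks reach 50.4 to 110 FPKM in Sedentary and 200 to 276 FPKM in Exercise livers, and the Lpin1 part grows most.

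At the first acylation, Gpam encodes the mitochondrial glycerol 3-phosphate acyltransferase, an insulin- and SREBP-1c-responsive enzyme. Gpam (gene ID 14732, chromosome 19, 55067268 to 55127238, minus strand) was at 438, 924, 500, 353, 319 and 531 CPM in Sedentary replicates 1 to 6, and at 182, 121, 170, 144, 133 and 142 CPM in Exercise replicates 1 to 6. No Exercise liver reached the lowest Sedentary liver, and Sedentary replicate 2 stood far above the other 5. The mean was 3.43-fold lower after exercise, 149 ± 23.1 against 511 ± 218 CPM (SD, n = 6), with a log2 fold change of -1.78 (SE 0.25, adjusted p = 0.000198, edgeR). Without Sedentary replicate 2 the log2 fold change was -1.53 (adjusted p = 8.75e-06, edgeR). Gpam had the 33rd largest log2 fall of the 12344 genes, of which 21.3% were called lower and 10.6% were lower without overlap between the groups. An antisense transcript, AC110206.1, lies in Gpam and had no row, and whether reads were counted by strand is not given in the sources used here.

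Agpat2 encodes an enzyme that acylates lysophosphatidic acid to phosphatidic acid. Agpat2 (gene ID 67512, chromosome 2, 26593057 to 26604417, minus strand) was at 364, 446, 371, 361, 351 and 354 CPM in the Sedentary livers and at 285, 284, 256, 269, 282 and 299 CPM in the Exercise livers, in replicate order. The groups did not overlap, and Sedentary replicate 2 was again the highest. The fall was 1.34-fold, from 375 ± 35.5 to 279 ± 14.9 CPM (SD, n = 6), with a log2 fold change of -0.42 (SE 0.065, adjusted p = 5.12e-05, edgeR). Without Sedentary replicate 2 it was -0.37 (adjusted p = 5.29e-05, edgeR). Egfl7, on the opposite strand, overlaps the end of Agpat2 and averaged 297 counts in Sedentary and 315 counts in Exercise libraries, against 4411 to 9337 counts for Agpat2. Gm20532, also protein-coding and on the opposite strand, has an annotated span (26586639 to 26635634) that covers all of Agpat2. It had no row of its own.

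The final acylation is carried out by 2 unrelated enzymes, encoded by Dgat1 and Dgat2. Dgat2 (gene ID 67800, chromosome 7, 99153658 to 99182719, minus strand) was at 557 to 737 CPM in Sedentary and 536 to 632 CPM in Exercise livers, with means of 609 ± 66.5 and 570 ± 33.2 CPM (SD, n = 6). Its log2 fold change was -0.096 (95% interval -0.23 to 0.04, adjusted p = 0.29, edgeR). Dgat1 (gene ID 13350, chromosome 15, 76502015 to 76511953, minus strand) was at 15.8 ± 1.59 CPM in Sedentary and 15.7 ± 1.39 CPM in Exercise livers (SD, n = 6), with a log2 fold change of -0.009 (95% interval -0.16 to 0.14, adjusted p = 0.94, edgeR). The groups overlapped for both genes, and both intervals leave out changes of the size seen for Lpin2 or Agpat2. Dgat2 FPKM was 29.2 ± 3.3 times that of Dgat1 in Sedentary and 27.8 ± 4.16 times in Exercise livers, with overlapping ranges.

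Mogat1 (gene ID 68393, chromosome 1, 78510991 to 78538173, plus strand) encodes a monoacylglycerol acyltransferase, an enzyme of the other route to diacylglycerol. It had 2 to 6 estimated counts in each Sedentary and 1 to 4 in each Exercise library, below the minimum for the test. With the filter left off, its log2 fold change was -0.27 (SE 0.45, adjusted p = 0.696, edgeR). A difference was not detectable at this depth.

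Of the VLDL assembly genes, Mttp (gene ID 17777, chromosome 3, 138089854 to 138144968, minus strand) was at 314, 309, 275, 283, 313 and 333 CPM in Sedentary replicates 1 to 6, and at 290, 258, 273, 295, 269 and 265 CPM in Exercise replicates 1 to 6. The groups overlapped, with 4 of 6 Exercise livers below the lowest Sedentary liver. The means were 304 ± 21.7 and 275 ± 14.7 CPM (SD, n = 6), and the log2 fold change of -0.15 (SE 0.059) fell just short of the threshold (adjusted p = 0.0546, edgeR). A two-sided exact permutation test of this gene alone gave p = 0.026. The call depended on the method: with DESeq2 the adjusted p was 0.0343, and with scaling by library size alone, in place of TMM, the log2 fold change was -0.24 with an adjusted p of 0.00468 (edgeR). Leaving out Sedentary replicate 3 or 4, the 2 lowest of that group, gave adjusted p values of 0.0293 and 0.0371 (edgeR). The other 10 fits with 1 liver left out did not pass (adjusted p = 0.0507 to 0.133, edgeR). Neither did 5 of the other settings, limma-voom among them (adjusted p = 0.0506 to 0.0859, edgeR or limma-voom).

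Apob (gene ID 238055, chromosome 12, 7977648 to 8016835, plus strand), the structural protein of VLDL, was at 3869, 2658, 3398, 2812, 4292 and 3163 CPM in Sedentary and at 3880, 2959, 4511, 3615, 3255 and 3170 CPM in Exercise livers, in replicate order. The groups overlapped over most of their range. The means were 3365 ± 626 and 3565 ± 569 CPM (SD, n = 6), with a log2 fold change of 0.083 (edgeR, 95% interval -0.16 to 0.32) that did not pass the test and a two-sided exact permutation p of 0.53. Scaled by library size alone, the sign turned (log2 fold change -0.013). The ratio of Mttp to Apob FPKM was 0.307 ± 0.0561 in Sedentary and 0.259 ± 0.0318 in Exercise livers, and the ranges overlapped.

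Of the 9 genes tested, 2 were called higher and 2 lower, beside 21.1% higher and 21.3% lower of all genes tested. Their median log2 fold change was -0.096 beside -0.003 over all genes tested. Scaling by library size alone moved the calls over all genes from 2603 higher and 2626 lower to 1767 higher and 3735 lower. The calls of Lpin1, Lpin2, Gpam and Agpat2 and their directions held under every scaling, filter and test tried.

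**Figure D3:**
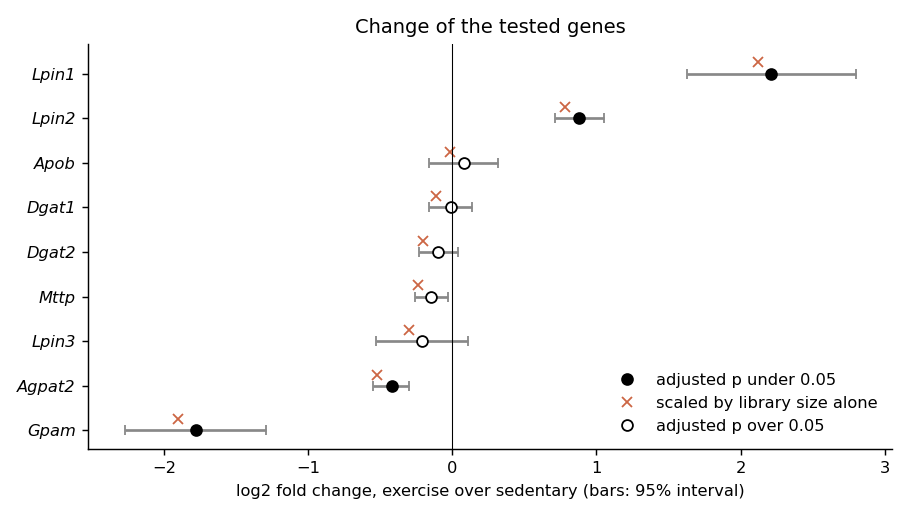
Log2 fold change of the 9 tested genes, Exercise over Sedentary (horizontal axis), with 95% intervals, filled circles where the adjusted p passed the threshold, and crosses for the fit scaled by library size alone. Lpin1 (2.21) and Gpam (-1.78) lie far from 0 on opposite sides, and the intervals of Apob, Dgat1, Dgat2 and Lpin3 cross 0.

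Lpin1 and Gpam also stood out by how unevenly they were expressed among the Sedentary mice. The SD of log2 CPM of Lpin1 was 0.69 among Sedentary livers, larger than that of 99.5% of the 7091 genes whose mean level was 10 CPM or more. It was 0.17 among Exercise livers, larger than that of 85.3% of genes. Without Exercise replicate 4 the latter was 0.09. For Gpam these SDs were 0.54 (above 98.9% of genes) and 0.22 (above 92.9%), and the Sedentary one rested in good part on replicate 2, without which it was 0.32 (above 96.2% of genes). That of Lpin1 stayed between 0.57 and 0.77 with any 1 Sedentary liver left out. The median gene had an SD of 0.13 in Sedentary and 0.11 in Exercise livers. Agpat2, Dgat1, Dgat2 and Mttp lay between 0.08 and 0.15 in both groups. Apob had 0.27 in Sedentary and 0.22 in Exercise livers (above 92.9% and 93.0% of genes). Lpin2 had 0.19 and 0.16 (above 79.2% and 81.2%). The spread of Lpin1 and Gpam was not compared between the groups by a test.

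In FPKM, Lpin1 was 0.523 ± 0.36 times Gpam in Sedentary livers, with a range from 0.161 in replicate 2 to 1.11 in replicate 4. In Exercise livers it was 7.08 ± 1.39 times Gpam, with a range from 4.95 to 8.82. This ratio was not planned. It sets the gene with the largest rise against the gene with the largest fall, so its large change follows from that choice. The order of the genes by mean FPKM also changed. In Sedentary livers, mean FPKM was highest for Dgat2 (287), Agpat2 (283) and Apob (250), whose ranges overlapped, followed by Gpam (89.0), Mttp (75.1), Lpin1 (38.4) and Lpin2 (37.7), each overlapping its neighbor in the order. Dgat1 (9.88), Lpin3 (1.07) and Mogat1 (0.248) came last, each apart from the next. In Exercise livers, Dgat2 (250) and Apob (248) overlapped at the top, Agpat2 (198) overlapped Lpin1 (167), and Lpin2 (65.0) overlapped Mttp (63.4). Gpam (24.0) was then apart from both neighbors in the order, ahead of Dgat1 (9.11), Lpin3 (0.873) and Mogat1 (0.192).

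**Figure D4:**
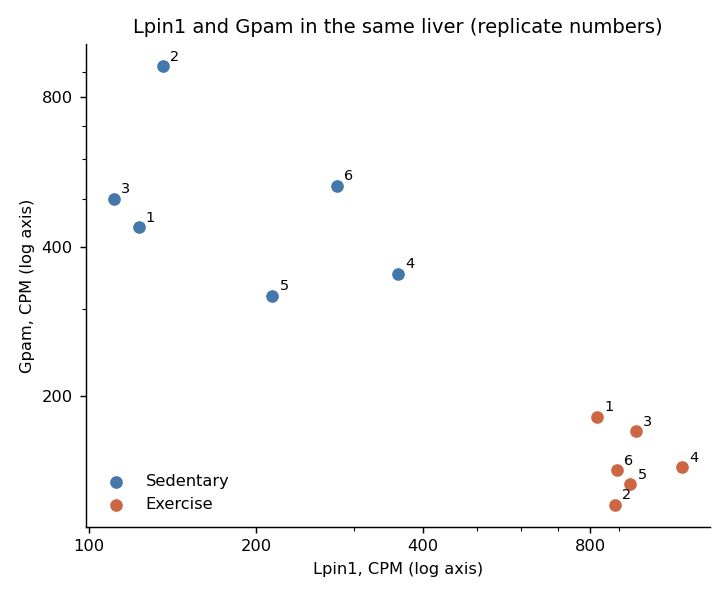
Lpin1 (horizontal) against Gpam (vertical) in the same liver, both in TMM-scaled CPM on log axes, with replicate numbers beside the points. Sedentary livers are scattered from 111 to 360 CPM of Lpin1 and 319 to 924 CPM of Gpam, and the Exercise livers lie together at high Lpin1 and low Gpam. The pair is the largest rise and the largest fall, so this separation follows from the choice of genes.

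The deposited counts and FPKM values together show whether the effective transcript length of a gene shifted between groups, as it would if the mix of long and short transcripts changed. Of 9862 genes with a mean FPKM of at least 1, 114 (1.16%) shifted in counts per FPKM (limma, adjusted p under 0.05). None of the 8 genes with enough signal did, although 4 of them (Gpam, Dgat2, Mttp and Apob) had an unadjusted p under 0.05 in limma, and their largest log2 shift was 0.0091 in size, for Lpin2. For Lpin1, Gpam and Apob the counts and FPKM therefore give the same fold changes apart from the scaling between libraries. Each library was centred on its median over the genes compared, and shifts this small depended on that centring. Centred over genes with a mean FPKM of at least 5, Dgat2 and Apob went from -0.0035 to -0.0012 each (adjusted p = 0.624, limma). The 4 unadjusted p values were thus not read as changes of transcript length.

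The wider pathway was described with 9 lists of 67 genes in all, the 10 genes above included. Of the 56 others that could be tested, 10 were higher and 15 lower after exercise, and 31 did not pass the test, against 21.1% higher and 21.3% lower over all genes. The median log2 fold change of all 65 tested was -0.04. Scaled by library size alone, 26 of the 65 were lower instead of 17 and 8 were higher instead of 12, with Apoe, Sec23a, Chpt1 and Slc27a5 no longer called.

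Among the 4 genes for glycerol 3-phosphate acyltransferases, the changes went both ways. Gpat4, which encodes an endoplasmic reticulum form, rose from 147 ± 27.5 to 249 ± 23.9 CPM (SD, n = 6, edgeR log2 fold change 0.76, adjusted p = 4.59e-05) without overlap between the groups. Gpat2 fell at a low level, from 1.65 to 1.05 CPM on average (edgeR log2 fold change -0.65, adjusted p = 0.0252). As a share of the summed FPKM of Gpam and Gpat4, a ratio chosen after the values were seen, Gpam made up 67.7% ± 11.2 in Sedentary livers (range 52.3% to 84.6%) and 28.5% ± 2.39 in Exercise livers (range 27.0% to 33.3%). Gpam was thus the more abundant of the pair in every Sedentary liver and the less abundant in every Exercise liver.

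For glycerol 3-phosphate supply, 1 of 4 genes rose and 2 fell. Gpd1, the cytosolic dehydrogenase that makes it from a glycolytic intermediate, fell from 319 ± 23.6 to 233 ± 19.6 CPM (edgeR log2 fold change -0.45, adjusted p = 3.34e-05), and its relative Gpd1l rose by a log2 fold change of 0.33. Of the 5 lysophosphatidic acid acyltransferase genes, Agpat2 was the one called, and Agpat1, Agpat3, Agpat4 and Agpat5 had log2 fold changes from -0.025 to 0.26. Whether Agpat2 differed from them was not tested. Of 8 genes for phosphatidic acid phosphatases and lipin regulators, the 2 that rose were Lpin1 and Lpin2. Plpp2 and Plpp3, lipid phosphate phosphatases of the cell surface, fell, Plpp3 from 117 ± 10.3 to 75.3 ± 5.79 CPM (edgeR log2 fold change -0.63, adjusted p = 1.34e-06). Ctdnep1 and Cnep1r1, the phosphatase complex that activates lipins, had log2 fold changes of -0.045 and 0.011.

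Of 9 genes for fatty acid uptake and activation, 4 fell and 1 rose. Acsl1, a major acyl-CoA synthetase of liver, fell from 1008 ± 60.0 to 623 ± 66.4 CPM (edgeR log2 fold change -0.69, adjusted p = 9.69e-07), and Acsl3, Acsl5 and Fabp1 also fell, by 0.45, 0.44 and 0.51 on the log2 scale. Slc27a5, a bile acid and very long-chain acyl-CoA synthetase, rose by a log2 fold change of 0.18, a call lost with scaling by library size alone (adjusted p = 0.24, edgeR).

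Of the 13 VLDL assembly genes, 10 did not pass the test. Smlr1, a gene of VLDL formation in hepatocytes, fell from 24.3 ± 3.0 to 15.3 ± 0.928 CPM (edgeR log2 fold change -0.67, adjusted p = 3.75e-06), and Apobec1, which edits Apob messenger RNA, fell by 0.31 on the log2 scale. Apoe rose by a log2 fold change of 0.20, a call also lost with that scaling (adjusted p = 0.178, edgeR). Of 12 genes for export of VLDL from the endoplasmic reticulum and its later sorting, 4 rose and 2 fell. Mia3 (TANGO1), a cargo receptor for large cargo, rose from 117 ± 13.4 to 182 ± 13.1 CPM (edgeR log2 fold change 0.63, adjusted p = 3.61e-06), and Sec23a, Sec24b and Sec24d of the COPII coat rose by log2 fold changes of 0.26, 0.34 and 0.45, that of Sec23a not being called with that scaling (adjusted p = 0.0674, edgeR). Sec24c, also of this coat, fell without overlap between the groups (edgeR log2 fold change -0.25, adjusted p = 0.00161). Sar1a, Sar1b, Sec23b and Sec24a of the coat were not called with TMM scaling. Sort1, a sorting receptor that binds apolipoprotein B, fell from 12.4 ± 2.3 to 6.19 ± 1.06 CPM (edgeR log2 fold change -1.0, adjusted p = 1.15e-05). Of 8 genes for phosphatidylcholine, the main phospholipid of the VLDL surface, 2 rose and 2 fell. Lpcat3, which remodels it with polyunsaturated chains, fell from 132 ± 10.9 to 87.0 ± 1.95 CPM (edgeR log2 fold change -0.60, adjusted p = 3.89e-07). Chkb, a choline kinase, rose by a log2 fold change of 0.31.

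**Figure D5:**
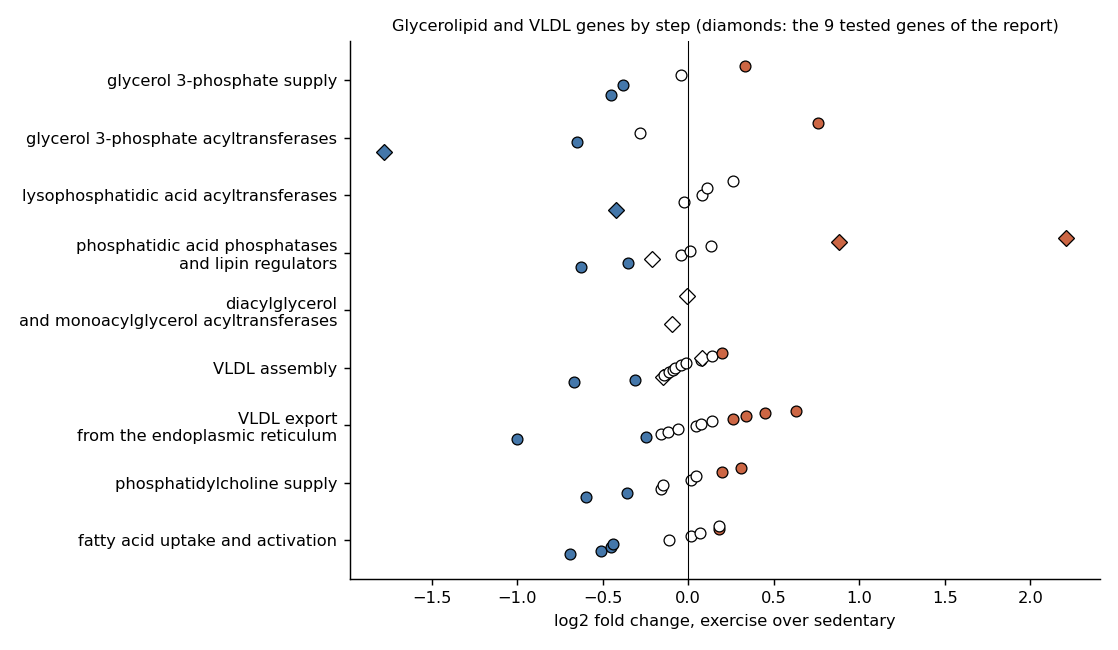
Log2 fold change, Exercise over Sedentary (horizontal axis), of the 65 tested genes in 9 lists (rows), in orange where called higher, blue where called lower and white where not called, with diamonds for the 9 tested genes described above. Lpin1 and Lpin2 lie farthest to the right and Gpam farthest to the left, and most VLDL assembly genes lie near 0.

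After the group means were taken off, the 3 genes whose level followed that of Lpin1 most closely over the 12 livers, out of 11537 with a mean level of 1 CPM or more, were Ivns1abp (r = 0.919), Khdc4 (r = 0.919) and Pfkfb2 (r = 0.908). Their log2 fold changes were 1.53, 0.21 and 1.05. For Gpam, Gca (r = 0.919) and Abitram (r = 0.907) were among the closest, with log2 fold changes of -0.50 and -0.34. These correlations were picked as the highest of many over few livers of similar depth, and no p is given for them.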

How the data were processed

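RNA-Seq of liver from 6 Sedentary and 6 Exercise mice was analysed. Per the labels, the authors used Bowtie2 2.3.4.3, RSEM 1.3.1 and mm10. The annotation and strand setting are not given in the sources used here. The authors deposited estimated counts per gene for each library, not scaled between libraries (31.3% not whole), and FPKM values scaled for transcript length and depth. All value columns were matched to a sample. Libraries were about equally deep, and counting error matters mainly for Mogat1 and Lpin3.

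Estimated counts were rounded, and edgeR 4.0.16 (R 4.3.3) was run on them (TMM scaling, filterByExpr with a minimum count of 10, quasi-likelihood test with robust fit, Benjamini-Hochberg adjustment over all 12344 genes tested, threshold 0.05), with group alone in the model. The estimated biological coefficient of variation came to 11.3%. The 95% intervals use a normal quantile and an SE taken from the F statistic of the quasi-likelihood test. With so few livers they are somewhat narrower than 95% intervals should be. Single genes were also compared by an exact permutation test over 924 relabellings on log2(CPM + 0.5). Counts per FPKM were tested with limma 3.58.1. Replicate livers differed by more than counting noise, and nothing in the labels ties livers to litters or cages. The edgeR test was tried on simulated counts, and the limma test of counts per FPKM on simulated log2 values.

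Alternatives were DESeq2 1.42.0, limma-voom, limma on log2(FPKM + 0.1) and log2(FPKM + 1), other scalings and filters, a replicate block, and each liver left out. On the FPKM scale, fold changes of low genes are understated by the pseudocount. The genes and lists were chosen with earlier results of these data known. Beside the 10 genes, the text names the called gene with the largest rise and fall in each list, and the 3 genes that follow Lpin1 and Gpam most closely. A result that this rule gives is not reported here. Other list members were named after their values were seen. Positions come from GENCODE M21 (GRCm38) and upstream sequences from RefSeq (GRCm38.p6). Other steps were run in Python 3.11.15 (pandas 2.3.3, scipy 1.17.1).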

Additional observations from a re-analysis of the deposited data

Results flagged for a closer look

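A liver is listed here where its gap to the nearest other liver of its group was large beside the whole range of the group (Dixon's test), which chance alone gives in about 1 of 20 groups. Of 38 groups of 6 livers checked, 5 had such a liver. Sedentary replicate 2 stood high for 3 genes of triglyceride synthesis. It had 924 CPM of Gpam (next liver 531), 446 CPM of Agpat2 (next 371) and 737 CPM of Dgat2 (next 614). Its Lpin1 level of 136 CPM was among the lower Sedentary values. Without it, the log2 fold change of Gpam was -1.53, that of Agpat2 -0.37 and that of Dgat2 -0.034, and no call of these genes changed. Exercise replicate 1 had 632 CPM of Dgat2 (next 571). In the same liver, Gpam made up 33.3% of the FPKM of Gpam and Gpat4 (next 28.5%).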

How the results depend on the processing

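Lpin1, Lpin2, Gpam and Agpat2 kept their direction and call under all 10 other settings and without any 1 liver. Their log2 fold changes over the settings were 2.12 to 2.35, 0.77 to 0.88, -1.90 to -1.69 and -0.52 to -0.42, and without 1 liver 2.09 to 2.45, 0.82 to 0.92, -1.88 to -1.53 and -0.44 to -0.37. Lpin3, Dgat1, Dgat2 and Apob were never called. Mttp was called lower, at a log2 fold change of -0.17 with upper-quartile scaling, -0.24 with library size alone or limma on FPKM, -0.15 with DESeq2 and -0.17 without Sedentary replicate 3 or 4. It was not called in the other 5 settings (adjusted p = 0.0506 to 0.0859, edgeR or limma-voom). Nor was it called in the other 10 fits with 1 liver left out (adjusted p = 0.0507 to 0.133, edgeR). Apob turned to -0.013 with library size alone and -0.007 with limma on either FPKM scale. Dgat1 turned sign when Sedentary replicate 2 or 4 or Exercise replicate 1 or 5 was left out, within a range of -0.036 to 0.04 over all livers left out. Of the wider pathway, 7 genes instead of 12 were higher with limma on log2(FPKM + 0.1), and 26 instead of 17 were lower and 8 instead of 12 higher with library size alone, a scaling that moved the median of all genes to -0.098. The cause was not tested. Counts per FPKM shifted for 0 to 2 of the 8 genes when 1 liver was left out, the 2 being Dgat2 and Apob without Sedentary replicate 6 (log2 shift -0.0042 each, adjusted p = 0.0447, limma). With all 12 livers 0 of them passed, and 4 had an unadjusted p under 0.05. Shifts this small depended on how the libraries were centred and were not read as changes of transcript length.

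With the replicate number as a block, the log2 fold change of Lpin1 was 2.34 and that of Gpam -1.69, the same 4 genes were called, and 2490 genes were higher and 2466 lower. Same-numbered livers correlated by -0.099 to 0.16 after the group means were taken off, and numbers 1 and 2 alone correlated best with their own, so the numbers were not taken to pair the livers. Depth limits Mogat1 most, and Lpin3 after it. Leaving out 1 liver from the SD among livers of a group was chosen after seeing the data.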
